A study of Homo sapiens with 8 samples.

Results

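The retinoid receptors and the COUP-TF orphan receptors are transcription factors of the nuclear receptor family, and 10 genes were taken by their symbol: the 3 retinoic acid receptors RARA, RARB and RARG, the 3 retinoid X receptors RXRA, RXRB and RXRG, the 3 COUP-TF receptors NR2F1, NR2F2 and NR2F6, and NRIP1, which encodes the corepressor RIP140. All 10 were measured, among 18732 genes tested of 19426 named. They were read by 173 array rows, each a probe set that reads a stretch of the gene, and 145 of them lay above the level of the median row of the array (log2 intensity 3.97), below which rows were left out as dim. In all, 277621 rows of all genes were tested. The RNA came from NTera2/D1, a human embryonal carcinoma line that resembles pluripotent cells and that retinoic acid (RA) drives into differentiation. Cells carried a small interfering RNA against RNF20 (siRNF20), an E3 ligase that puts ubiquitin on histone H2B, or one against the bacterial gene LacZ (siLacZ), and were given 10 µM RA or the solvent DMSO over 72 h. Their RNA was read on Affymetrix exon arrays. The groups were RA siRNF20, RA siLacZ, DMSO siRNF20 and DMSO siLacZ, all of this 1 line, with 2 arrays each, numbered GF117 and GF120 and called biological duplicates in the labels. The comparisons ask whether RA changed the receptors that read it, and whether the loss of RNF20 changed that.

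RA acts through heterodimers of a retinoic acid receptor and a retinoid X receptor, which sit on direct repeats of a short half-site in DNA, hold corepressors without ligand and exchange them for coactivators when RA is bound. RARB is a textbook target of this switch: its RA-induced transcript starts at a promoter that holds such a repeat with the spacing called DR5. COUP-TF receptors bind related repeats and are known to restrain RA receptor activity and to rise in embryonal carcinoma cells given RA, and RIP140 binds liganded RA receptors and represses them.

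Some promoters of the genes that rose in both RA comparisons are shown first, but not all their starts. They let the letters be read for the repeats on which RA receptors are known to sit. The half-sites searched were AGGTCA or GGGTCA or AGTTCA or GGTTCA, any pair of them as a direct repeat, on both strands, in the 300 bases from 250 before to 50 after each start in the RefSeq promoter table (GRCh38.p14). Of the members 9 were in the table, with 20 starts. A repeat with a spacer of 5 bases (DR5) was found at 1 of the 4 starts of RARB and at none of the other 19 starts; it lies from base -53 to base -37 of that start. Over all promoters of the table, 31 of 35116 held one, 0.0883%. Repeats with a spacer of 2 bases (DR2), held by 0.0399% of promoters, or of 1 base (DR1), held by 0.131%, were in no member's window. Capitals mark the 2 half-sites, and the windows without capitals hold no such repeat.
RARB start 3, chr3:25428013-25428312, + strand: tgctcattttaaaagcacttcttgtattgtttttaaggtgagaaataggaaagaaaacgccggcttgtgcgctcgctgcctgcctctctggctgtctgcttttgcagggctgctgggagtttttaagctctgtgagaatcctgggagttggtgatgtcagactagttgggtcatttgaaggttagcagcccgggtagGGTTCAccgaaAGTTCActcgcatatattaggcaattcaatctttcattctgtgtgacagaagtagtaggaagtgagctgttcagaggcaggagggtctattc
RARB start 2, chr3:25340552-25340851, + strand: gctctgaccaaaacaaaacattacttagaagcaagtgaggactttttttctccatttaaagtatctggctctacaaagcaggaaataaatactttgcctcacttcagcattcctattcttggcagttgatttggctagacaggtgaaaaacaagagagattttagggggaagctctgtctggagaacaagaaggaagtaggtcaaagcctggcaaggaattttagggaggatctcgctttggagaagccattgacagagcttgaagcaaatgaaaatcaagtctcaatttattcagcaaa
NR2F1 start 1, chr5:93582972-93583271, + strand: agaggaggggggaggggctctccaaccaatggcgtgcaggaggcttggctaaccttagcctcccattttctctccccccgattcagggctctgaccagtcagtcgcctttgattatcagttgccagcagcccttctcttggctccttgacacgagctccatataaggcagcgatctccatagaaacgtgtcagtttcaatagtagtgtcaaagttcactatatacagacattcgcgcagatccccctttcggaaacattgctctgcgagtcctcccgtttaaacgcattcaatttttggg
NRIP1 start 1, chr21:15065887-15066186, - strand: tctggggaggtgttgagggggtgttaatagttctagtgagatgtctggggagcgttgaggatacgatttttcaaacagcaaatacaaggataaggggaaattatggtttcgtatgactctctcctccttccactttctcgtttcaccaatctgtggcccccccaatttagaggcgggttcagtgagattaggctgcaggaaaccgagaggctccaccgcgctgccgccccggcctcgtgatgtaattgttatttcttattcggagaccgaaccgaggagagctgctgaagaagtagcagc
The matches describe letters in these windows; receptor binding was not measured here. NR2F1 start 1 and NRIP1 start 1 each held 1 lone half-site, against 3 at RARB start 3, of which 2 form the repeat. Lone half-sites were not particular to these genes: RARA start 1 held 2, and RXRA start 2 and RXRG start 1 held 1 each. Their share over all promoters was not taken.

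The GF117 array labelled RA siLacZ stood apart: its gene values correlated at Pearson r of 0.135 to 0.239 with those of the other 7 arrays, which correlated at 0.908 to 0.975 among themselves. It was therefore left out of the fits, so that RA siLacZ is 1 array assumed to vary like the others; values with all 8 arrays stand beside the results. RNF20 itself had log2 intensities of 6.27 and 5.89 on the RA siRNF20 arrays, against 8.10 on the RA siLacZ array, and of 6.48 and 5.99 on the DMSO siRNF20 arrays, against 8.25 and 8.10 on the DMSO siLacZ arrays. It was lower by fits of -2.02 (SE 0.29, adjusted p = 0.110) in RA and -1.94 (SE 0.23, adjusted p = 0.237) in DMSO, so that the depletion did not pass limma's test over all genes, although the siRNF20 and siLacZ arrays did not overlap. On the array left out, labelled RA siLacZ, it read 6.08, near the siRNF20 arrays, and with all 8 arrays the fit in RA was -1.01 (adjusted p = 0.546). Other genes stood apart on that array too, in both directions. The pluripotent cell markers, given next for the other 7 arrays, summed to 853 there. Neuron and endothelial markers, at 371 and 133, also lay below each of the other 7 arrays. Fibroblast and blood markers, at 736 and 523, lay above each of them. What set this array apart was not tested. Pluripotent cell markers (10 of 10 measured) had summed intensities of 8802 and 8498 on the RA siRNF20 arrays, 6751 on the RA siLacZ array, 10481 and 11027 on the DMSO siRNF20 arrays and 10651 and 10482 on the DMSO siLacZ arrays. All of them lay above the array median on each of these 7 arrays, but so did all 8 neuron and all 6 fibroblast markers measured. Fewer of the 10 lay above the median of all gene values with RA. They were 9 and 9 on the RA siRNF20 arrays and 8 on the RA siLacZ array, against 10 on each DMSO array. Of the 10, 5 were called lower in each RA comparison. Neuron markers (8 of 8) summed to 1110 and 925, then 1009, against 637 and 537, then 505 and 494, in the same order of groups, with 2 called higher in siRNF20 and 1 in siLacZ cells. The list did not move as a whole. DCX, SNAP25 and MAP2 read higher on each of these RA arrays than on each DMSO array. ELAVL3 read lower, at 4.82 to 4.99 against 5.15 to 5.66, and STMN2, TUBB3, ELAVL4 and NEFM overlapped. Fibroblast markers (6 of 7 measured) summed to 413 to 479 on the RA arrays and 489 to 559 on the DMSO arrays. Endothelial markers (4 of 4; 448 to 611 and 400 to 461) and blood markers (3 of 5; 179 to 265 and 170 to 245) overlapped. Within the fibroblast list THY1 was called lower with RA, at -1.34 in siRNF20 and -1.44 in siLacZ cells, while COL1A1 was called higher, at 1.30, in siLacZ cells. CDH5, an endothelial cadherin, was called higher, at 2.53 in siRNF20 and 2.87 in siLacZ cells. Their part in the results was not tested, and in bulk RNA a change in the share of cells and a change in RNA per cell cannot be told apart.

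RARB, the RA receptor that is itself an RA target, showed the highest rise of the 10 genes. Its gene value, the median of its rows above the dim level, was 9.92 and 9.61 on the RA siRNF20 arrays and 9.44 on the RA siLacZ array, against 3.90 and 2.70 on the DMSO siRNF20 arrays and 3.83 and 3.95 on the DMSO siLacZ arrays. All 4 DMSO values lay below the level of the median row, and the RA values lay 5.47 to 5.95 above it. RA arrays thus stood far above DMSO arrays with no overlap, and the RNA was near the dim end of the scale without RA. The fitted log2 difference, RA minus DMSO, was 6.46 (SE 0.35) in siRNF20 cells (limma, Benjamini-Hochberg adjusted p = 3.1e-05) and 5.55 (SE 0.43) in siLacZ cells (adjusted p = 2.0e-04). With the dim DMSO arrays set at the level of the median row, the RARB group means differed by 55.4-fold in siRNF20 cells and 44.4-fold in siLacZ cells. On the log2 scale these are 5.79 and 5.47. They are point estimates and not lower bounds, and the siLacZ value rests on a lone RA array. The fitted difference in siRNF20 cells was 7.16 without the GF117 and 5.82 without the GF120 DMSO siRNF20 array. With an offset of 16 before the logarithm it was 5.03 in siRNF20 cells and 4.49 in siLacZ cells, and all of these were called. Of all genes tested, 1.79% were called higher (adjusted p below 0.05) in siRNF20 cells and 1.88% in siLacZ cells, against 4 of the 10 members in each; 2.13% and 2.03% were called lower, against 0 members. Over the 3 RA and 4 DMSO arrays, 6 of the 10 members had every RA array above every DMSO array, as had 8.07% of all genes.

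**Figure D1:**
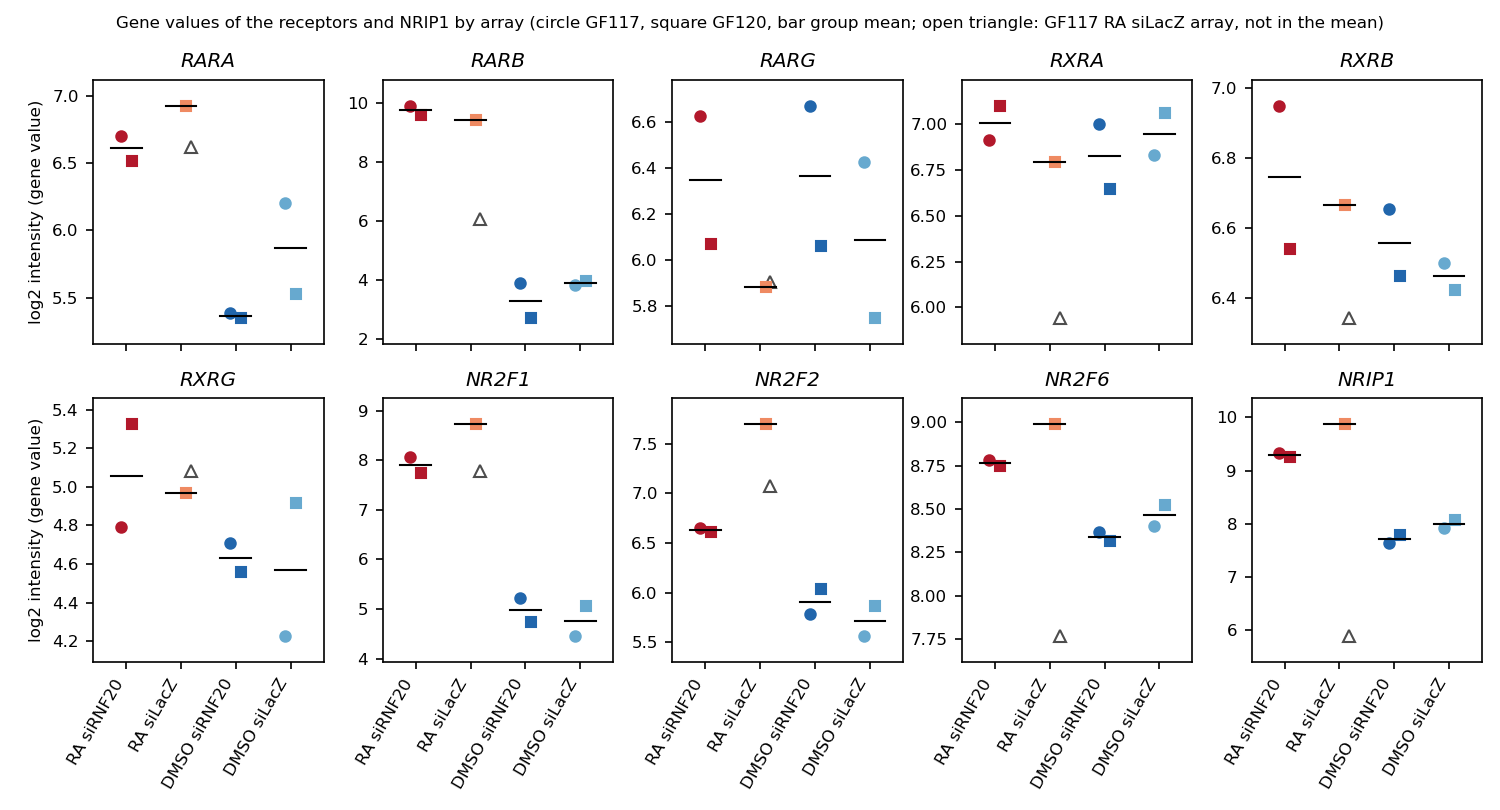
Log2 intensity of each gene (median of its rows above the dim level) on each array, in the groups RA siRNF20, RA siLacZ, DMSO siRNF20 and DMSO siLacZ; circles are GF117, squares GF120, bars group means, and open triangles the GF117 array labelled RA siLacZ, which is not in the mean. RARB, NR2F1 and NRIP1 stand clear of their DMSO arrays on every RA array in the fit, and the axes differ between genes.

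RARB transcripts start at several promoters, so its 16 rows were read one by one, with 14 above the dim level. In siRNF20 cells 13 of the 14 were called higher with RA, where 0.924% of all rows were, and in siLacZ cells 13 of the 14, where 0.935% of all rows were. Their fitted differences ran from 5.18 to 8.76 in siRNF20 cells and from 4.79 to 7.58 in siLacZ cells. The dim level is applied to a row's mean over RA and DMSO arrays, so some rows passed it only through their RA values. Row 2614399 is one, at 1.64 and 1.00 on the DMSO siRNF20 and 1.00 and 2.32 on the DMSO siLacZ arrays. A row low on every array is left out by the same rule, so that the 13 of 14 was in part set by the filter. Row 2614386, the brightest, read 12.23 and 12.14 on the RA siRNF20 arrays and 12.26 on the RA siLacZ array, against 5.86 and 6.63 on the DMSO siRNF20 arrays and 6.69 and 5.97 on the DMSO siLacZ arrays. Here all 3 RA arrays read nearly the same value with either siRNA. The lowest intensity in the deposited values is 2. On each RA array 0 RARB rows stood at exactly that value, against 2 and 6 on the GF117 and GF120 DMSO siRNF20 arrays and 2 and 0 on the GF117 and GF120 DMSO siLacZ arrays, and the differences of those rows are limited by it.

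The exception was row 2614371, the first of the gene by row number. It read 6.28 and 6.52 on the RA siRNF20 arrays and 6.73 on the RA siLacZ array, against 4.74 and 6.36 on the DMSO siRNF20 arrays and 4.75 and 4.97 on the DMSO siLacZ arrays. In siRNF20 cells the ranges of this row overlapped, since the GF120 DMSO array read above the GF117 RA array. Its difference was 0.85 (SE 0.51, limma adjusted p = 0.623) in siRNF20 cells and 1.87 (SE 0.63, adjusted p = 0.217) in siLacZ cells. Relative to the other RARB rows it moved by -6.15 in siRNF20 cells (limma diffSplice, adjusted p = 1.1e-08, with 0.377% of all rows called) and by -4.30 in siLacZ cells (adjusted p = 5.4e-04, with 0.662% called), and it was the 1 row of the 14 so called. Rows so called were not particular to RARB. In NR2F1 they were 4 of 10 in siRNF20 and 7 of 10 in siLacZ cells. In NR2F2 they were 2 of 17 in siRNF20 cells, and in NRIP1 1 of 9 in siLacZ cells. That test pools the spread of all rows of a gene, so that its p-values count rows of the same arrays like replicates. The second RARB row by number, 2614381, was dim on every array of the fit, at 2.14 and 2.60 on the RA siRNF20 arrays and 1.61 on the RA siLacZ array, against 1.61 and 3.27 on the DMSO siRNF20 arrays and 1.61 and 1.62 on the DMSO siLacZ arrays. Between genes row numbers followed genome order (Spearman's rho 0.98 over 450 genes of the + strand of chromosome 3, where RARB lies), but exon positions of the rows are not used here, so neither row can be tied to one of the starts above. Row 2614446, the last, was dim by its mean and yet read 7.59 and 6.55 on the RA siRNF20 arrays and 6.71 on the RA siLacZ array, against 2.09 and 1.00 on the DMSO siRNF20 arrays and 2.06 and 1.71 on the DMSO siLacZ arrays.

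**Figure D2:**
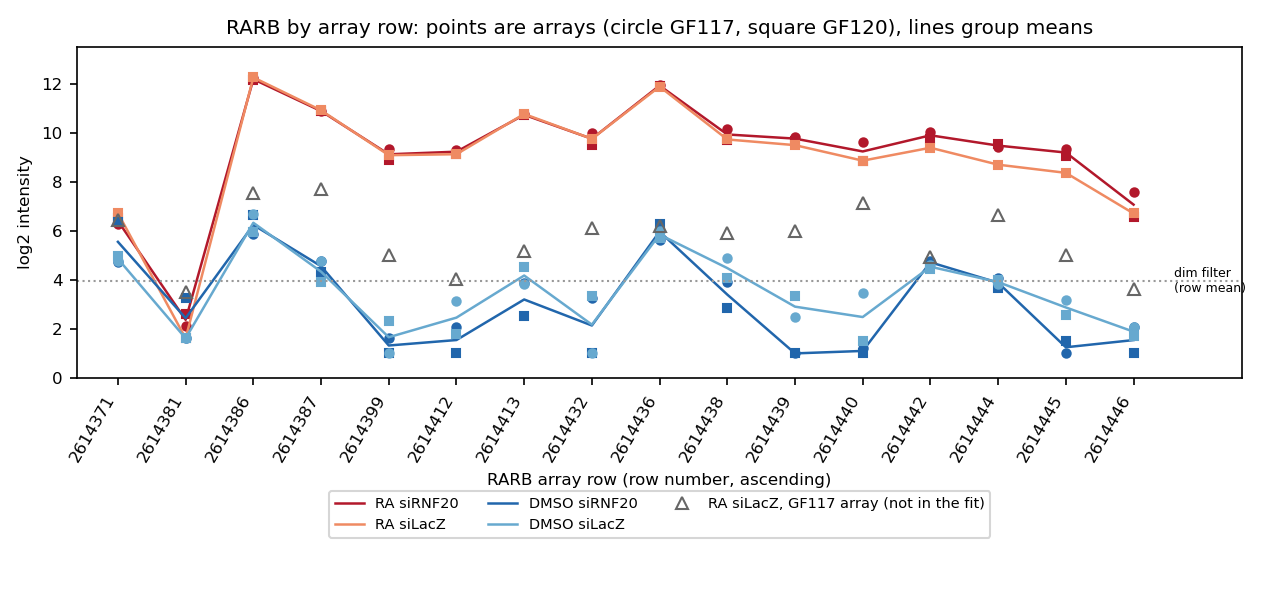
Log2 intensity of the 16 RARB rows in ascending row number; points are arrays (circles GF117, squares GF120), lines group means, open triangles the GF117 array labelled RA siLacZ and the dotted line the dim level of 3.97, which is applied to a row's mean. At row 2614371 the RA lines lie above the DMSO lines by 0.85 in siRNF20 and 1.87 in siLacZ cells, and from the third row on by far more. Row 2614371 lies between 4.74 and 6.73 on the 7 arrays of the fit.

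RARA, the most widely expressed RA receptor, was 6.71 and 6.52 on the RA siRNF20 arrays and 6.93 on the RA siLacZ array, against 5.38 and 5.35 on the DMSO siRNF20 arrays and 6.21 and 5.53 on the DMSO siLacZ arrays. All RA arrays were above all DMSO arrays, and the 2 DMSO siLacZ arrays were spread more widely than any other pair of the gene. RARA rose with RA in siRNF20 cells by 1.25 (SE 0.26), 2.38-fold (limma, adjusted p = 0.0289). In siLacZ cells its difference was 1.06 (SE 0.32, adjusted p = 0.116), which did not pass. The call in siRNF20 cells is near the threshold: without the filter on dim rows the adjusted p was 0.0569, without the intensity trend 0.0534, and without either siRNF20 array of either treatment 0.0640 to 0.145. Of its 21 rows above the dim level 20 were above 0 in siRNF20 cells, with 7 called, and 16 in siLacZ cells, with 3 called. Of all rows 0.924% and 0.935% were called higher, and the share of all rows above 0 was not taken. Row 3720937, the row with the greatest difference in siLacZ cells, rose by 2.81 (SE 0.52, adjusted p = 0.0251) in siRNF20 cells and by 3.54 (SE 0.63, adjusted p = 0.0221) in siLacZ cells.

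RARG, the RA receptor known for its role in embryonic cells, did not pass the test in any comparison. It was 6.63 and 6.07 on the RA siRNF20 arrays and 5.88 on the RA siLacZ array, against 6.67 and 6.06 on the DMSO siRNF20 arrays and 6.43 and 5.75 on the DMSO siLacZ arrays. In each of the 3 groups of 2 the GF117 array was the higher one, by more than any difference between group means, and the groups overlapped. The RA difference was -0.02 (SE 0.32, adjusted p = 0.990; 95% interval -0.73 to 0.69) in siRNF20 cells and -0.20 (SE 0.39, adjusted p = 0.875; -1.07 to 0.67) in siLacZ cells, and 0 of its 18 rows were called by limma (1 and 0 at an unadjusted p below 0.05).

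The retinoid X receptors are the shared partners of RA, thyroid hormone and vitamin D receptors. RXRA was 6.91 and 7.10 on the RA siRNF20 arrays and 6.79 on the RA siLacZ array, against 7.003 and 6.65 on the DMSO siRNF20 arrays and 6.83 and 7.06 on the DMSO siLacZ arrays. RXRB was 6.95 and 6.54 on the RA siRNF20 arrays and 6.67 on the RA siLacZ array, against 6.65 and 6.47 on the DMSO siRNF20 arrays and 6.50 and 6.43 on the DMSO siLacZ arrays. RXRG, in adult tissue a receptor of muscle and brain, was 4.79 and 5.33 on the RA siRNF20 arrays and 4.97 on the RA siLacZ array, against 4.71 and 4.56 on the DMSO siRNF20 arrays and 4.23 and 4.92 on the DMSO siLacZ arrays. For each of the 3 the RA and DMSO ranges overlapped, and RXRG rested on 5 of its 15 rows, the rest being dim. RA differences in siRNF20 cells were 0.18 (95% interval -0.29 to 0.66), 0.19 (-0.30 to 0.67) and 0.43 (-0.34 to 1.19) for RXRA, RXRB and RXRG, with adjusted p from 0.668 to 0.800. In siLacZ cells they were -0.16 (-0.74 to 0.43), 0.20 (-0.39 to 0.80) and 0.40 (-0.54 to 1.34), with adjusted p from 0.732 to 0.851. These intervals leave room for changes of a log2 unit in RXRG and of less in RXRA and RXRB, and the sign of the RXRA difference turned in siLacZ cells when rows were averaged (0.05) or filtered otherwise (0.07 and 0.11).

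NR2F1, the receptor COUP-TFI of the developing nervous system, showed the second greatest rise. It was 8.07 and 7.74 on the RA siRNF20 arrays and 8.74 on the RA siLacZ array, against 5.23 and 4.74 on the DMSO siRNF20 arrays and 4.45 and 5.06 on the DMSO siLacZ arrays. The lowest RA array, at 7.74, stood clear of the highest DMSO array, at 5.23, and the RA siLacZ array was the highest of all. The rise was 2.92 (SE 0.28), 7.56-fold, in siRNF20 cells (limma, adjusted p = 4.4e-04) and 3.98 (SE 0.34), 15.8-fold, in siLacZ cells (adjusted p = 3.1e-04), where an offset of 16 before the logarithm gave 3.36. All 10 of its rows were above the dim level and above 0 in both, and 6 were called in each. Of all rows 0.924% in siRNF20 and 0.935% in siLacZ cells were called higher. As in RARB, the filter had a part in such counts. Row 2820425 read 2.23 and 2.96 on the DMSO siRNF20 arrays and 1.39 and 2.68 on the DMSO siLacZ arrays, and passed through its RA values. The greatest difference was in row 2820408, by 5.41 in siRNF20 and 6.76 in siLacZ cells. Rows 2820409, 2820410, 2820411 and 2820424 were not called; row 2820410 read 9.22 and 9.71 on the RA siRNF20 arrays and 9.26 on the RA siLacZ array, against 8.98 and 9.17 on the DMSO siRNF20 arrays and 8.74 and 9.10 on the DMSO siLacZ arrays. That row was bright without RA, where the gene's own value lay between 4.45 and 5.23.

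NR2F2, the receptor COUP-TFII of mesoderm, veins and lymphatics, was 6.65 and 6.61 on the RA siRNF20 arrays and 7.70 on the RA siLacZ array, against 5.78 and 6.03 on the DMSO siRNF20 arrays and 5.56 and 5.86 on the DMSO siLacZ arrays. The RA arrays were all higher than the DMSO arrays, the RA siLacZ array by most. NR2F2 rose in siLacZ cells by 1.99 (SE 0.27), 3.98-fold (limma, adjusted p = 0.0030). In siRNF20 cells its difference was 0.72 (SE 0.22, adjusted p = 0.118), which did not pass; with the mean of rows in place of the median it was 1.33 (adjusted p = 0.0327). The rows of NR2F2 fell into different ranges. Of all 23, dim ones included, the 8 with the highest numbers, from 3610182 on, differed between RA and DMSO by a median of 3.19 in siRNF20 cells and 5.10 in siLacZ cells, whereas the other 15 had medians of 0.14 and 0.31. The split was drawn after the values were seen and has no test. In each comparison 4 rows above the dim level were called higher, and all lie among the 8. Of all rows 0.924% in siRNF20 and 0.935% in siLacZ cells were called higher. Row 3610190 passed the dim level only through its RA values, at 1.18 to 3.62 on the DMSO arrays. Whether these rows also read NR2F1, a close copy, or antisense and neighbouring transcripts was not tested.

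**Figure D3:**
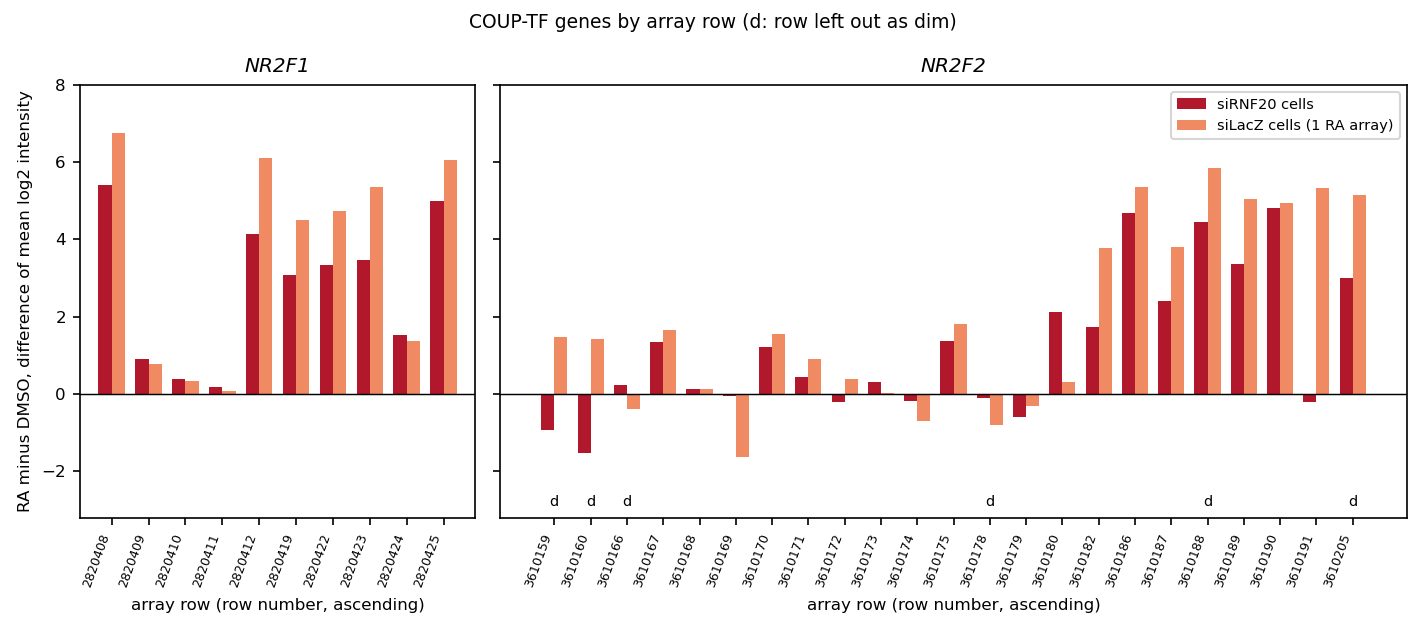
Difference of mean log2 intensity, RA minus DMSO, of each NR2F1 and NR2F2 row in ascending row number, with siRNF20 cells left of siLacZ cells, whose RA group is 1 array; d marks rows left out as dim. In NR2F2 the 8 rows from 3610182 on have siLacZ bars of 3.77 to 5.84, and row 3610191 has a siRNF20 bar of -0.20.

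NR2F6, the receptor EAR2, was the flattest of the COUP-TF group. It was 8.79 and 8.75 on the RA siRNF20 arrays and 8.99 on the RA siLacZ array, against 8.37 and 8.32 on the DMSO siRNF20 arrays and 8.40 and 8.53 on the DMSO siLacZ arrays. RA arrays were above DMSO arrays by little, with differences of 0.42 (SE 0.15, adjusted p = 0.202; 95% interval 0.08 to 0.77) in siRNF20 cells and 0.53 (SE 0.19, adjusted p = 0.188; 0.11 to 0.95) in siLacZ cells, and neither passed over all genes.

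NRIP1, the corepressor, was 9.34 and 9.25 on the RA siRNF20 arrays and 9.88 on the RA siLacZ array, against 7.64 and 7.79 on the DMSO siRNF20 arrays and 7.91 and 8.07 on the DMSO siLacZ arrays. RA and DMSO arrays did not overlap, and duplicates lay far closer to each other than RA and DMSO did. It rose by 1.58 (SE 0.16), 2.99-fold, in siRNF20 cells (limma, adjusted p = 5.9e-04) and by 1.89 (SE 0.19), 3.71-fold, in siLacZ cells (adjusted p = 7.8e-04). With the mean of rows in place of the median the siLacZ difference was 1.28. Of its 9 rows 7 were called higher in siRNF20 and 6 in siLacZ cells, where 0.924% and 0.935% of all rows were. Rows 3925656 and 3925665 were called in neither, and row 3925641, at 0.20 in siLacZ cells, in siRNF20 cells only. Row 3925665 read 7.29 and 8.11 on the RA siRNF20 arrays and 6.95 on the RA siLacZ array, against 7.51 and 7.44 on the DMSO siRNF20 arrays and 7.37 and 7.65 on the DMSO siLacZ arrays.

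With the GF117 array labelled RA siLacZ included, no gene at all was called in either RA comparison, although 1510 in siLacZ and 504 in siRNF20 cells had an unadjusted limma p below 0.05. The median siLacZ difference of all genes moved to -0.49, and the siLacZ differences were then 3.86 for RARB (adjusted p = 0.440), 3.51 for NR2F1 (adjusted p = 0.174), 1.68 for NR2F2 (adjusted p = 0.440) and -0.11 for NRIP1 (adjusted p = 0.958). On that array RARB was 6.06, NR2F1 7.78, NR2F2 7.07 and NRIP1 5.88, so the first 3 lay above their DMSO siLacZ arrays and NRIP1 below. In siRNF20 cells, which hold no such array, the differences were the same to 2 decimals for these genes, and RARB had an adjusted p of 0.259.

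**Figure D4:**
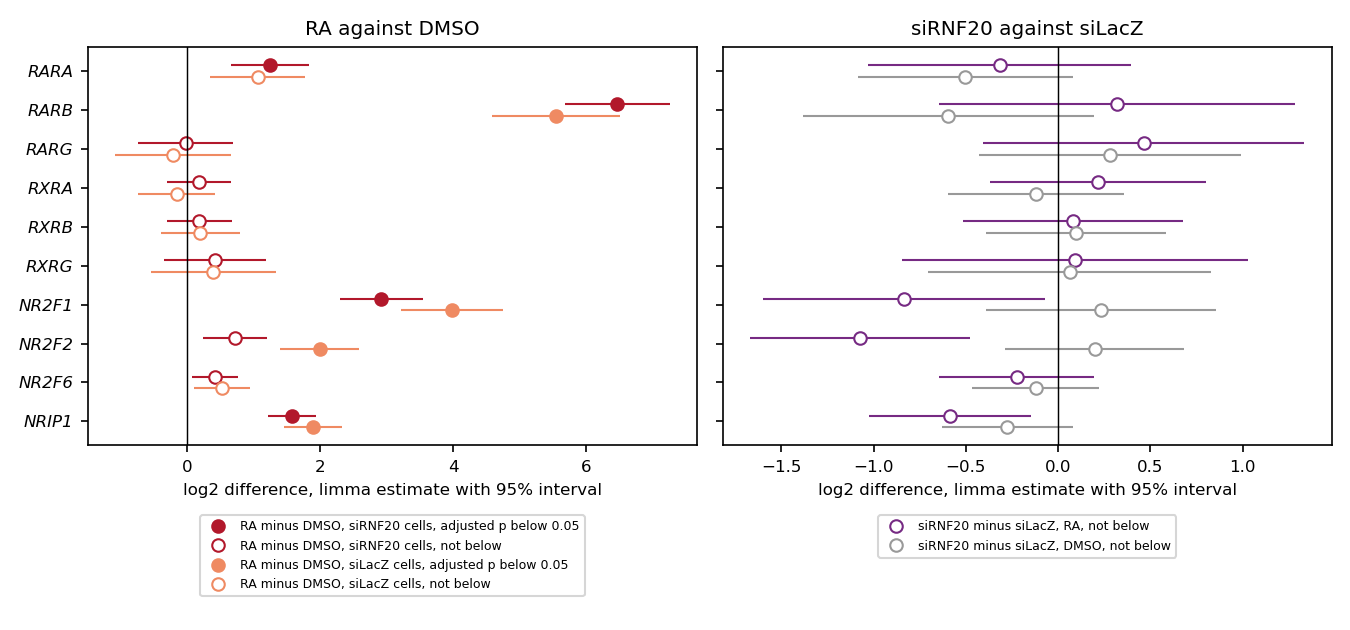
Log2 differences of the 10 genes from limma with their 95% intervals, RA minus DMSO on the left (dark red siRNF20 cells, orange siLacZ cells) and siRNF20 minus siLacZ on the right (purple in RA, grey in DMSO); filled points have an adjusted p below 0.05. RARB, NR2F1 and NRIP1 are filled in both RA comparisons, RARA in siRNF20 cells, NR2F2 in siLacZ cells, and none on the right.

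With the siRNA against RNF20 none of the 10 genes passed the test. In RA, siRNF20 minus siLacZ, 0 of 10 were called by limma, with 3 at an unadjusted p below 0.05 (NR2F1, NR2F2 and NRIP1), and 0.0107% of all genes were called and 7.93% were at an unadjusted p below 0.05. NR2F2 differed by -1.07 (SE 0.27, adjusted p = 0.280; 95% interval -1.67 to -0.48), NR2F1 by -0.83 (SE 0.34, adjusted p = 0.589; -1.60 to -0.07) and NRIP1 by -0.59 (SE 0.19, adjusted p = 0.494; -1.02 to -0.15). Both RA siRNF20 arrays read below the 1 RA siLacZ array in 5 of the 10 members, these 3 among them, as they did in 33.9% of all genes. With the mean of rows NRIP1 was at -0.043, and 3 of its 9 rows were above 0. RARB differed by 0.32 (adjusted p = 0.887; -0.64 to 1.28) and RARA by -0.32 (adjusted p = 0.841; -1.03 to 0.40). The others lay between -0.23 and 0.46, RARG being the highest, with 18 of its 18 rows above 0 and 0 called. The 18 RARG rows share the same 3 RA arrays, and RARG was higher on the GF117 array of each pair. Between the GF120 RA arrays alone its difference was 0.19. With all 8 arrays NRIP1 was 1.41 and RARB 2.01, neither called, where the median of all genes was 0.43.

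In DMSO, siRNF20 minus siLacZ, 0 of the 10 were called, 0 had an unadjusted limma p below 0.05, and 0% of all genes were called (519 at an unadjusted p below 0.05). The differences ran from -0.59 in RARB and -0.50 in RARA to 0.28 in RARG, with NR2F1 at 0.23, NR2F2 at 0.20 and NRIP1 at -0.27, and the adjusted p was 0.9997 for each. The RARB value in DMSO is at the dim end, and without the GF120 DMSO siRNF20 array its difference was 0.0012. Whether siRNF20 cells responded to RA otherwise than siLacZ cells was tested as such, as the siRNF20 response minus the siLacZ response. By limma 0 of the 10 were called, with 2 (NR2F1 and NR2F2) at an unadjusted p below 0.05, as were 737 genes in all, and 0% of all genes were called. NR2F2 had a difference of responses of -1.27 (SE 0.34, adjusted p = 0.936; 95% interval -2.04 to -0.50) and NR2F1 one of -1.07 (SE 0.44, adjusted p = 0.9994; -2.05 to -0.08). RARB was at 0.91 (SE 0.55; -0.33 to 2.16), RARA at 0.19 (SE 0.41) and NRIP1 at -0.31 (SE 0.25), all with adjusted p of 0.9994. The RA comparisons share no arrays with each other, but the difference of responses rests on 1 RA siLacZ array.

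A single NR2F2 row stood out. Row 3610191 read 6.20 and 6.30 on the RA siRNF20 arrays, against 11.51 on the RA siLacZ array, and 6.47 and 6.44 on the DMSO siRNF20 arrays, against 6.66 and 5.72 on the DMSO siLacZ arrays. Among these 7 arrays it was high on the RA siLacZ array only; the array left out, also labelled RA siLacZ, read 9.36. At rows 3610189 and 3610190 beside it, the array left out read 2.83 and 2.77, where the RA siLacZ array of the fit read 10.16 and 8.11. The difference siRNF20 minus siLacZ in RA was -5.26 (SE 0.41, limma adjusted p = 0.0244), 1 of 2 rows called among all rows (0.00072%), while RA minus DMSO was 5.32 (adjusted p = 4.6e-04) in siLacZ cells and -0.20 (adjusted p = 0.920) in siRNF20 cells. Without the GF120 DMSO siRNF20 array the adjusted p was 0.0632, and with all 8 arrays the difference was -4.19 (adjusted p = 0.546). Of the 8 rows at that end of the gene, this one included, all were below 0 for siRNF20 minus siLacZ in RA, from -5.26 to -1.21 with a median of -2.11, against 10 of the other 15, with a median of -0.17. The 8 rows were set apart by their RA minus DMSO values, which in siLacZ cells rest on the same RA siLacZ array. A row high on that array is pushed below 0 here. The contrast with the other 15 rows was therefore in part set by the choice and has no test. Row 3610191 too was chosen after its values were seen.

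Of 39 other nuclear receptors listed, from estrogen and thyroid hormone receptors to orphan receptors, 36 were measured, and 1 was called higher in each RA comparison, 0 lower. That share is near the background of all genes, of which 1.79% were called higher and 2.13% lower in siRNF20 cells and 1.88% higher and 2.03% lower in siLacZ cells. At an unadjusted limma p below 0.05 there were 5 of the 36 in siRNF20 cells, against 15.3% of all genes, and 2 in siLacZ cells, against 16.4%. The gene called was NR6A1, the germ cell nuclear factor that silences POU5F1 during differentiation, with a rise of 1.33 (SE 0.17, limma adjusted p = 0.0021) in siRNF20 cells and 0.99 (SE 0.21, adjusted p = 0.0293) in siLacZ cells. NR6A1 was 9.99 and 9.76 on the RA siRNF20 arrays and 9.71 on the RA siLacZ array, against 8.68 and 8.41 on the DMSO siRNF20 arrays and 8.83 and 8.62 on the DMSO siLacZ arrays. The median difference of this list was -0.05 in siRNF20 and 0.04 in siLacZ cells, against -0.03 and -0.05 over all genes. Of the 30 listed coregulators, which receptors recruit to chromatin, 29 were measured, and 1 was called higher and 3 lower in siRNF20 cells, beside the same background of 1.79% and 2.13%. In siLacZ cells 0 were called by limma, with 3 at an unadjusted p below 0.05. KAT2B, an acetyltransferase, rose by 1.74 in siRNF20 cells and was at 1.71 (adjusted p = 0.0613) in siLacZ cells. The genes called lower were HDAC3, a histone deacetylase, at -0.70, TLE1, a Groucho-type corepressor, at -0.83, and BCL11A, a zinc finger protein known to bind COUP-TF receptors, at -1.28, and in siLacZ cells they were at 0.05, -0.80 and -0.86.

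Among genes that RA receptors are known to turn on, 9 rose and 3 fell in each RA comparison, beside 1.79% of all genes called higher and 2.13% lower in siRNF20 cells and 1.88% and 2.03% in siLacZ cells. Of the 30 listed, 27 were measured; the median was 0.25 in siRNF20 and 0.20 in siLacZ cells. CYP26A1, which degrades RA, rose by 4.77 (SE 0.25, limma adjusted p = 3.1e-05) in siRNF20 cells and by 4.59 (SE 0.31, adjusted p = 1.4e-04) in siLacZ cells. HOXB1, a hindbrain homeobox gene, rose by 3.98 (adjusted p = 5.0e-05) in siRNF20 and 3.49 (adjusted p = 3.5e-04) in siLacZ cells, and HOXD4, another homeobox gene, by 2.45 and 3.36. CRABP2, which carries RA to its receptors, rose by 3.17 in siRNF20 and 2.33 in siLacZ cells, and CYP26B1, a further RA-degrading enzyme, by 2.02 and 3.72. The genes called lower were ICAM1, an adhesion molecule, at -2.20 in siRNF20 and -1.43 in siLacZ cells, RET, a growth factor receptor, at -1.09 and -1.55, and LRAT, which stores retinol as esters, at -1.60 and -0.91. The list was chosen with earlier results of these data known. CYP26A1 was the 1 listed target with a DR5 in the windows searched, of 20 in the promoter table. None of the 3 lists had a member called by limma for siRNF20 against siLacZ or for the difference of responses. At an unadjusted limma p below 0.05 the 27 RA targets had 5 in RA, 1 in DMSO and 5 for the difference. In the same order the 36 nuclear receptors had 0, 1 and 0, and the 29 coregulators 1, 1 and 1. Over all genes the shares were 7.93% in RA, 2.77% in DMSO and 3.93% for the difference. Whether a list departs from these shares was not tested.

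**Figure D5:**
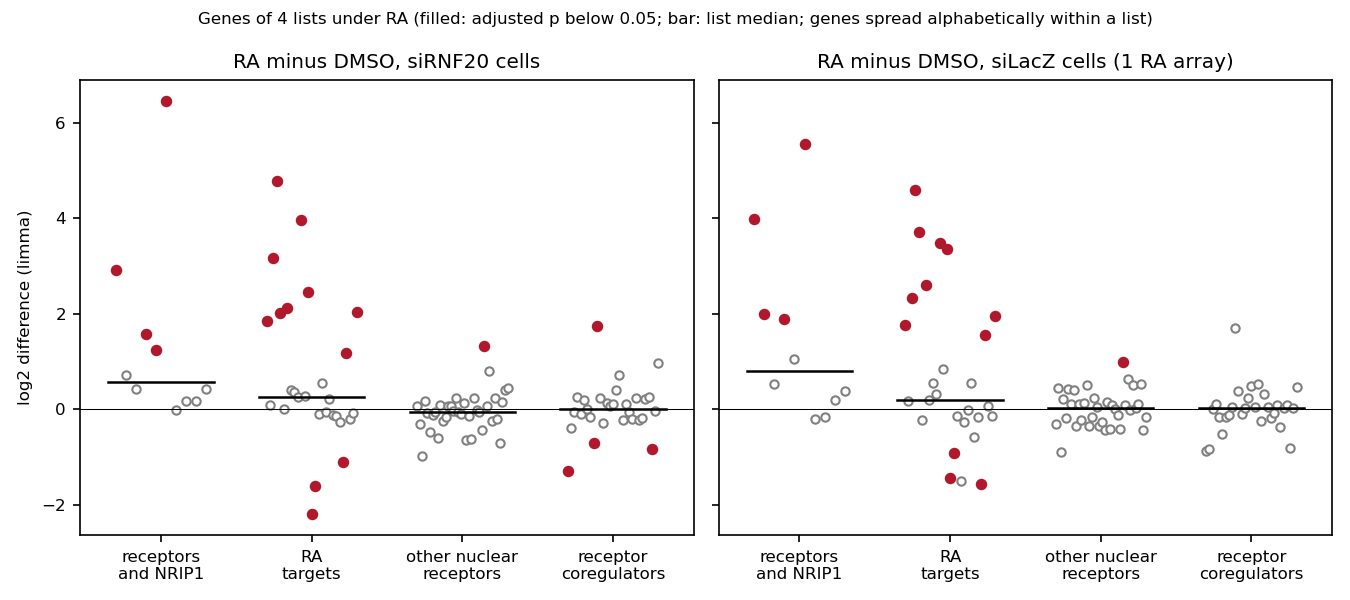
Log2 differences from limma, RA minus DMSO, in siRNF20 cells (left) and siLacZ cells (right, 1 RA array) for the 10 genes and the 3 lists; filled points have an adjusted p below 0.05 and bars are list medians. RARB at 6.46 and 5.55 is the highest point of each panel, and most other nuclear receptors and coregulators lie near 0.

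The profiles over the 7 arrays give each receptor its nearest genes, by the root mean square distance of mean-centred log2 values among all genes tested, as a description over arrays that share their treatments. RARB was nearest to SKAP2 (distance 0.36, Pearson r 0.99), then SEMA3C (0.69) and LOC100129455 (0.75). NR2F1 was nearest to LAMA4 (0.22), PAX6 (0.26) and CA4 (0.30), and NR2F2 to AFAP1L2 (0.13), ADCY10 (0.17) and CEMIP2 (0.18). NRIP1 was nearest to TPPP3 (0.08), AHNAK (0.11) and HOXB3 (0.11). RARA was nearest to CHIC2 (0.13), TBC1D9 (0.14) and PIH1D2 (0.15), and RXRG to PATE2 (0.10), DLX2 (0.11) and OR51E1 (0.12). Pearson's r over the 7 arrays was 0.937 to 0.998 for the nearest genes named. Since these genes were picked as the nearest of all genes tested, a high r was largely set by the choice. RXRG was called in no comparison and its RA and DMSO ranges overlapped, so its nearest genes need not share a response to RA. RARG, RXRA, RXRB and NR2F6 varied by under 1 log2 unit and were not searched.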

How the data were processed

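The deposited values are linear intensities, 1 for each array row and array. The authors' background correction, normalization, tools and build are not stated in the labels or file headers used here. The 8 arrays of total RNA form 4 groups by their titles. Of 1384231 rows, 354600 carry 1 gene symbol in the platform annotation; 2950 older symbols were updated through RefSeq. Values were taken as log2 of the deposited intensities with no further normalization, dim rows (mean at or below 3.97, intensity 15.7) were left out, and a gene's value is the median of its rows. The array gives no counts, so that the number of arrays limits the precision; with 2 arrays against 2 an exact permutation test cannot go below p = 0.333. limma 3.58.1 in R 4.3.3 fitted the 4 group means to 7 arrays with an intensity trend; p-values are two-sided, Benjamini-Hochberg adjusted over all genes or rows tested, called below 0.05, and measure the spread between duplicates. Rows of 1 gene were compared with diffSplice, which pools the spread of a gene's rows as if rows on 1 array were independent. Its p-values therefore do not measure the spread between duplicates alone. The gene fit alone was tested on simulated data. Rows can also read near-identical copies or overlapping genes, which was not checked. The GF numbers are not explained in the labels, and with only 2 of them they were not treated as a pairing.

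The 10 genes, the 3 lists, the markers and the choice to leave out the GF117 array labelled RA siLacZ were made with earlier results of these data known. Named were all members, RNF20, the 3 nearest genes of each member that ranged over at least 1 log2 unit, up to 4 called members of a list per RA comparison, and all RARB rows. Single rows of other members, the neuron markers, the marker genes THY1, COL1A1 and CDH5, and LRAT, ICAM1 and RET were named after their values were seen. Alternatives were all 8 arrays, 2 other dim filters (none, and the 75th percentile), the mean of rows, an offset of 16, quantile normalization, the GF number as a block, no trend, the compared groups alone, and each array left out. Promoters were searched and figures drawn with Python 3.11.15, pandas 2.3.3, numpy 2.4.6 and matplotlib 3.10.9. Protein sequences were not used here.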

Additional observations from a re-analysis of the deposited data

Results flagged for a closer look

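Values outside the fits showed a signal above that of the DMSO samples in 10 places, which are given as values. On the GF117 array labelled RA siLacZ, left out of the fits, 5 of the 10 genes read above both DMSO siLacZ arrays, namely RARA at 6.62, RARB at 6.06, RXRG at 5.09, NR2F1 at 7.78 and NR2F2 at 7.07 on the log2 scale; 28.5% of all genes did so on that array. Among the 28 rows of these genes left out as dim, 5 had every RA array of the fit above every DMSO array, as had 3.88% of all dim rows. Their lowest RA values were 3.78 in RARA row 3720959, 6.55 in RARB row 2614446, 3.24 in RXRG row 2442021, 5.03 in NR2F2 row 3610188 and 4.28 in NR2F2 row 3610205. No group held the 4 arrays needed to test for a single outlying array.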

How the results depend on the processing

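RARB, NR2F1 and NRIP1 were called in both RA comparisons, and NR2F2 in siLacZ cells, under every alternative that kept to the 7 arrays or fewer. With all 8 arrays the calls were 0 for genes, members and RARB rows in each comparison, and differences turned sign for NR2F6 (-0.085) and NRIP1 (-0.11) in siLacZ cells, for NR2F6 (0.39) and NRIP1 (1.41) between siRNAs in RA, and for NRIP1 in the difference of responses (1.69). RARA in siLacZ cells was called with the mean of rows (1.13, adjusted p = 0.0250), and NR2F2 in siRNF20 cells likewise (1.33). Deviations from the group means by GF number correlated at 0.297 to 0.364 between the 3 groups other than RA siLacZ. With the replicate block, the GF number in the fit, RA called 1792 genes in siLacZ and 1959 in siRNF20 cells, against 733 and 734 without it; siRNF20 against siLacZ called 232 in RA and 1 in DMSO, and the difference of responses 4, against 2, 0 and 0. Then RARA in siLacZ cells (1.21, adjusted p = 0.0139) and NR2F2 in siRNF20 cells (0.72, adjusted p = 0.0245) were called too, RARG in siLacZ cells was 0.10 and RXRB between siRNAs in RA -0.031, RNF20 was called in RA (-2.19, adjusted p = 0.0029) and DMSO (-1.94, adjusted p = 0.0015), and no call of a member was lost.

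Without the trend RA called 456 genes in siLacZ cells and siRNF20 called 1 in RA. That last count was 0 with no dim filter, the stricter one, the mean or the offset, 10 after quantile normalization and 12 in the compared groups alone, both of which called RNF20 in RA (adjusted p = 0.0416 and 0.0217). NR2F2 row 3610191 was not called without the trend (adjusted p = 0.386). Signs turned in small differences that were never called: with no filter RXRA 0.075 and RXRG -0.17 in siLacZ cells and RXRA -0.077 between siRNAs in RA; with the stricter one RXRA 0.11 (siLacZ), RARG 0.024 (siRNF20), RXRA -0.081 and RXRB -0.19 (siRNAs, RA), RARB 0.011 and NR2F1 -0.34 (siRNAs, DMSO); with the mean RXRA 0.053 (siLacZ), RARG 0.023 and RXRA -0.021 (siRNF20), RXRA -0.011 and RXRG -0.022 (siRNAs, RA), RXRA 0.063 and NR2F2 -0.20 (siRNAs, DMSO) and NRIP1 0.050 (difference of responses). RARB rows with a relative use called were 2 in siLacZ and 3 in siRNF20 cells with no filter, against 1 and 1. The causes were not tested.

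Leaving out each array in turn, RA called 317 to 970 genes in siLacZ cells (317 without the GF117 and 389 without the GF120 DMSO siLacZ array) and 324 to 720 in siRNF20 cells (324 without the GF117 and 371 without the GF120 DMSO siRNF20 array), and siRNF20 called 0 to 2 in RA and 0 to 1 in DMSO. Members called were 4 and 3 to 4. Signs turned within these ranges: RARG -0.54 to 0.14 and RXRA -0.30 to 0.039 in siLacZ cells; RARG -0.32 to 0.28 and RXRB -0.017 to 0.39 in siRNF20 cells; RXRB -0.12 to 0.29 and RXRG -0.18 to 0.34 between siRNAs in RA; RARB -1.34 to 0.0012, RARG -0.059 to 0.62, RXRA -0.34 to 0.056, RXRG -0.28 to 0.41, NR2F1 -0.077 to 0.54 and NR2F2 -0.065 to 0.35 in DMSO; and RARA -0.15 to 0.53 in the difference of responses. RARB row 2614371 in siRNF20 cells was 0.04 to 1.66. Signal near the dim level limits RARB in DMSO and RXRG throughout. Where an array is left out, a lone array is assumed to vary like the others.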

Other observations

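In the promoters of RefSeq, 29 genes held a DR5 of the letters searched, and 16 of them were tested. RARB and CYP26A1 were the 2 called higher by limma in each RA comparison, 1 (PDC) was called lower in siLacZ cells, and the median difference of the 16 was 0.06 in siRNF20 and -0.01 in siLacZ cells. This set was formed after the data were seen and is given as a description, with no test.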
